A study of Danio rerio with 18 samples.

Results

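Genes of integrin adhesion and membrane repair were followed in whole zebrafish larvae of the AB strain. Members were taken by symbol: integrin alpha and beta subunits, talins, vinculins, integrin-linked kinase (ilk), parvins, paxillins, kindlins (fermt), zyxin, annexins, dysferlin (dysf) and myoferlin (myof). Of 77 matching rows, 72 had a mean of at least 10 reads over the 18 larvae, out of 25266 genes in the table, and all 72 passed the low-count filter that left 22038 genes to test. The 5 rows below the minimum were anxa3a (mean 2.44 reads), itga6l_1 (3.83), itgb7_2 (4.11), itga2.2 (7.11) and itgam (9.94), while itga11a_1 (11.7) and itgb3a (13.3) lay just above it. The 72 comprised 21 alpha and 14 beta integrin subunits, 2 integrin-related proteins, 4 talin rows, 3 kindlins, 3 vinculin and zyxin rows, 3 paxillin rows, 5 rows of ilk and parvins, 14 annexins and 3 ferlins. Of these rows, 11 are numbered copies (tln2a_1, for example), which the sources used here leave unexplained, and they are reported apart from the gene of the same name.

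Each library came from 1 wild-type larva aged 7 days post fertilization (dpf), sorted into a resilient or a susceptible archetype at 6 dpf. Larvae of 5 resilient stressed and 5 susceptible stressed libraries were taken 30 min after a stress of 5 min, and those of 4 resilient basal and 4 susceptible basal libraries without it. The sources used here do not give the scoring of the archetypes, the kind of stress or the clutches. Levels are in CPM, read counts scaled to library size with TMM normalization factors, and the SD is over larvae. A gene was called where edgeR's quasi-likelihood test gave a p below 0.05 after Benjamini-Hochberg adjustment over all genes tested.

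Integrins are receptors made of an alpha and a beta subunit that tie the cytoskeleton to the extracellular matrix or to other cells. Talins and kindlins bind the beta tail and switch the receptor on, vinculin and the complex of ilk with parvins join it to actin, and paxillin and zyxin serve as scaffolds at the same sites. Annexins bind membrane lipids in the presence of calcium. Ferlins, dysferlin above all, take part with annexins in the resealing of torn plasma membrane, and loss of dysferlin causes a muscular dystrophy in humans. In muscle, integrin adhesions with laminin anchor fibres at their ends.

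In resilient larvae, 30 min after the stress, transcripts of dysf and of the talin tln2a fell. For both genes all 5 resilient stressed larvae lay below all 4 resilient basal larvae, which held for 13.9% of the members and 4.36% of all genes. Of the 72 members, 9 fell and 2 rose, which is 15.3% called, against 6.35% of all genes tested (3.59% lower and 2.76% higher). The 9 that fell were dysf, tln2a, its copy tln2a_1, tln1, vclb, anxa11b, parvg, itgae.2_2 and itgav, and the 2 that rose were anxa5a and the paxillin copy pxna_1. At an unadjusted p below 0.05 there were 27 members, or 37.5%, against 21.6% of all genes. The median log2 fold change of the members was -0.098, against 0.0041 over all genes tested, and 49 of the 72 (68.1%) had a negative fold change, against 49.2% of all genes. In whole-larva RNA, fewer cells of a type and less RNA per cell cannot be told apart.

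**Figure D1:**
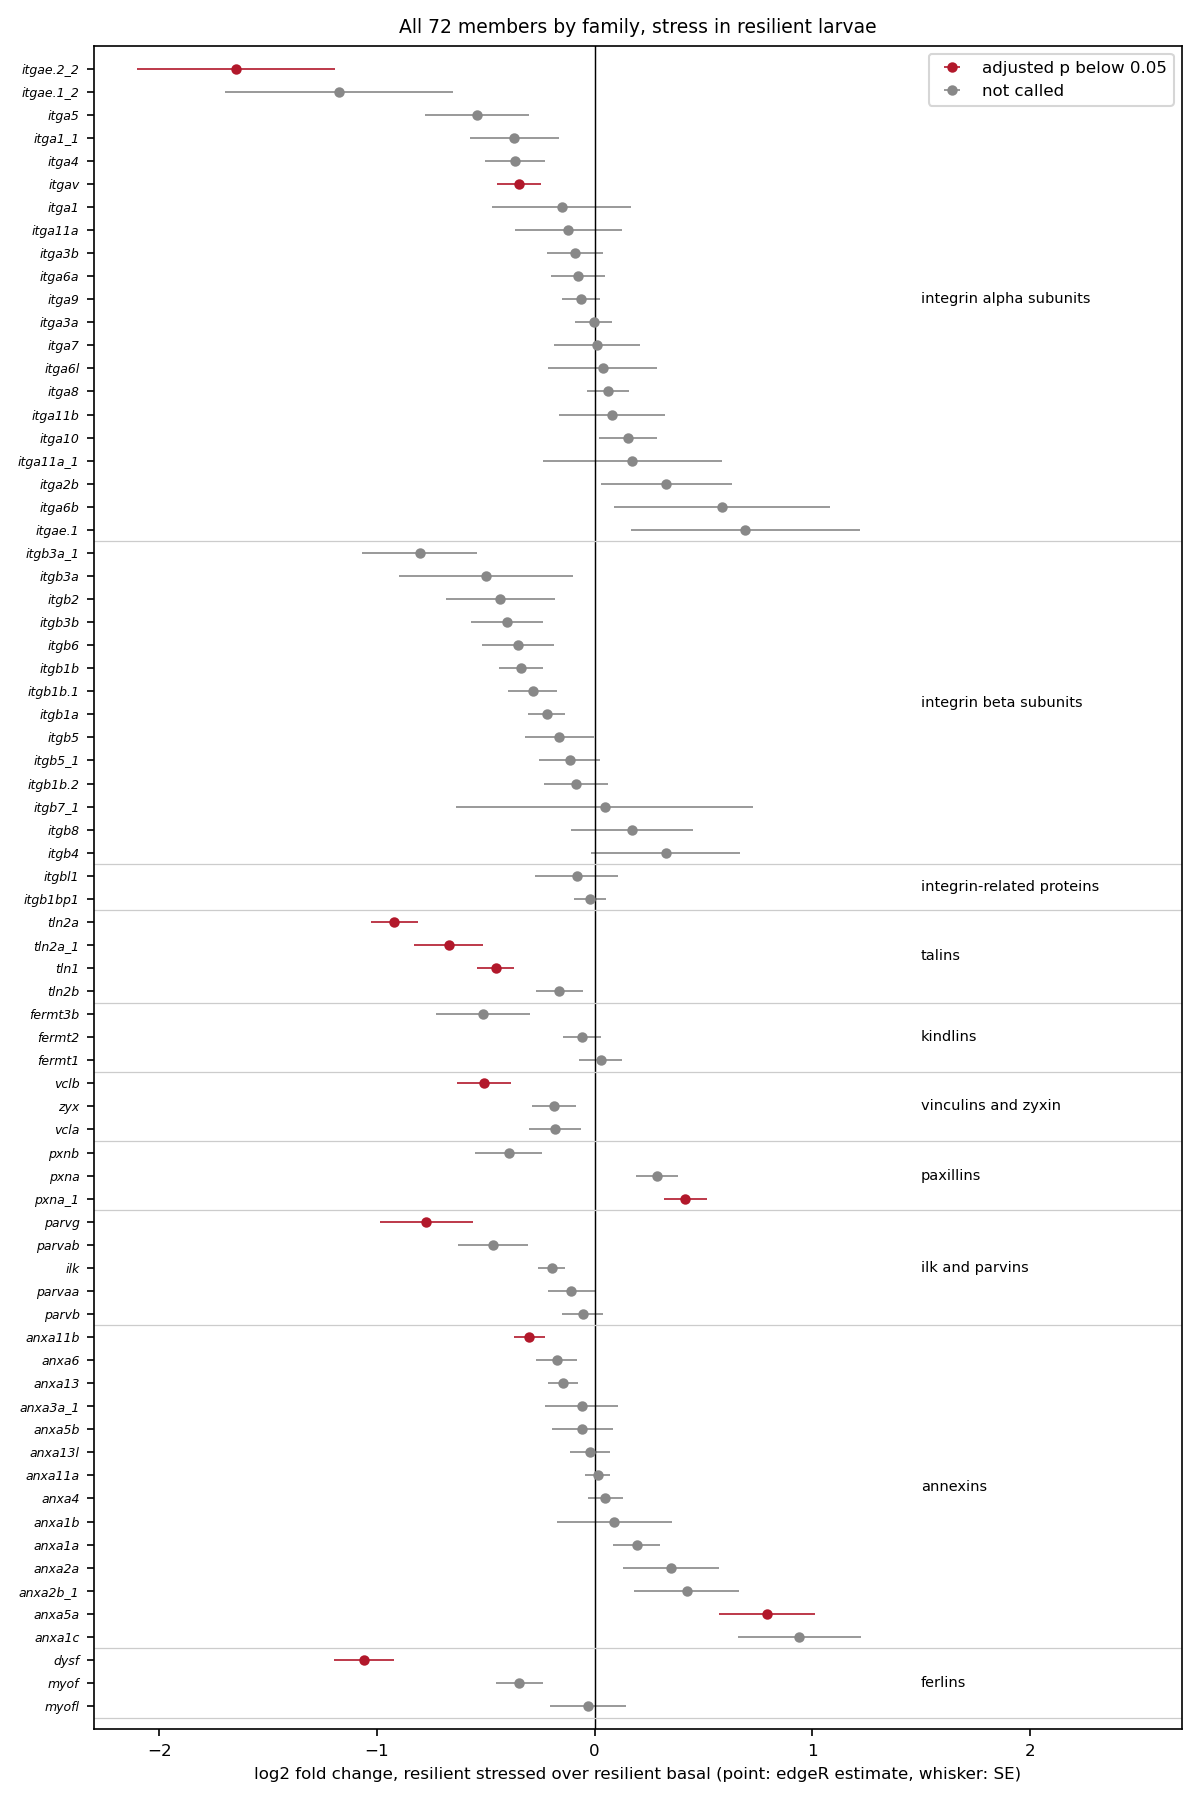
Log2 fold change of resilient stressed over resilient basal larvae (horizontal axis) for each of the 72 members, in blocks by family and ordered by fold change within a block, with whiskers of 1 SE. The 11 called members are in red: they run from -1.65 for itgae.2_2 to 0.79 for anxa5a. Of the 4 talin rows, 3 are among them (75%, against 6.35% of all genes).

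Of the ferlins, dysf showed the largest change by test. It measured 17.1, 14.7, 18.4, 13.7 and 16.7 CPM in the resilient stressed larvae, against 32.1, 31.3, 33.6 and 37.6 CPM in the resilient basal larvae. The groups did not overlap, and the means were 16.1 ± 1.88 CPM in resilient stressed and 33.7 ± 2.80 CPM in resilient basal larvae. The log2 fold change was -1.06 (SE 0.14, adjusted p = 0.00112). Myoferlin, a ferlin known from myoblast fusion and membrane repair, averaged 22.6 ± 2.73 CPM in resilient stressed and 28.7 ± 3.07 CPM in resilient basal larvae, with a log2 fold change of -0.35 (SE 0.11, adjusted p = 0.065), and was not called. The myoferlin-like row myofl had a log2 fold change of -0.031 (SE 0.17, adjusted p = 0.947). In the RefSeq annotation of another assembly (GRCz12tu), 2 uncharacterised genes overlap dysf. Since no strand setting is known, their reads cannot be separated from those of dysf. The same limit holds for other members that a gene overlaps there, among them tln1, tln2b, itgae.1, itgae.2_2, anxa1c, anxa5b, fermt2 and fermt3b.

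Talins gave the other main change. The talin tln2a, whose mammalian counterpart is abundant in striated muscle and brain, measured 16.0, 12.8, 16.9, 16.5 and 15.3 CPM in the resilient stressed larvae, against 33.9, 27.2, 26.0 and 30.7 CPM in the resilient basal larvae. Every resilient stressed larva lay below every resilient basal larva, and the log2 fold change was -0.92 (SE 0.11, adjusted p = 0.000506). The copy tln2a_1, which held 11.5% to 19.0% of the reads of the pair in each larva, measured 3.76, 2.96, 3.29, 3.39 and 2.69 CPM in the resilient stressed larvae, against 4.39, 5.58, 5.26 and 5.30 CPM in the resilient basal larvae. It also separated the groups, with a log2 fold change of -0.67 (SE 0.16, adjusted p = 0.0185). With the reads of both rows summed, an analysis chosen after seeing the data, tln2a fell by 0.88 on the log2 scale (SE 0.10, adjusted p = 0.00037). The widely expressed talin tln1 measured 116, 102, 116, 118 and 111 CPM in the resilient stressed larvae, against 166, 141, 165 and 145 CPM in the resilient basal larvae. Its groups did not overlap either, and the log2 fold change was -0.45 (SE 0.086, adjusted p = 0.00739). The remaining talin, tln2b, averaged 22.1 ± 2.33 CPM in resilient stressed and 24.7 ± 3.58 CPM in resilient basal larvae, with a log2 fold change of -0.16 (SE 0.11, adjusted p = 0.423).

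The calls of dysf and tln2a stood under all 31 alternative analyses, 18 of which leave out 1 larva, with adjusted p up to 0.0288 for dysf and 0.0409 for tln2a. That of tln1 stood with any 1 larva left out (adjusted p up to 0.0332) and ended with 1 surrogate variable (adjusted p = 0.463), without resilient basal larvae 1 and 3, or without resilient stressed larvae 2 and 3, which are the larvae at the ends of the first principal component. That of tln2a_1 also ended without resilient basal larva 3 or resilient stressed larva 2 (adjusted p up to 0.0532).

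**Figure D2:**
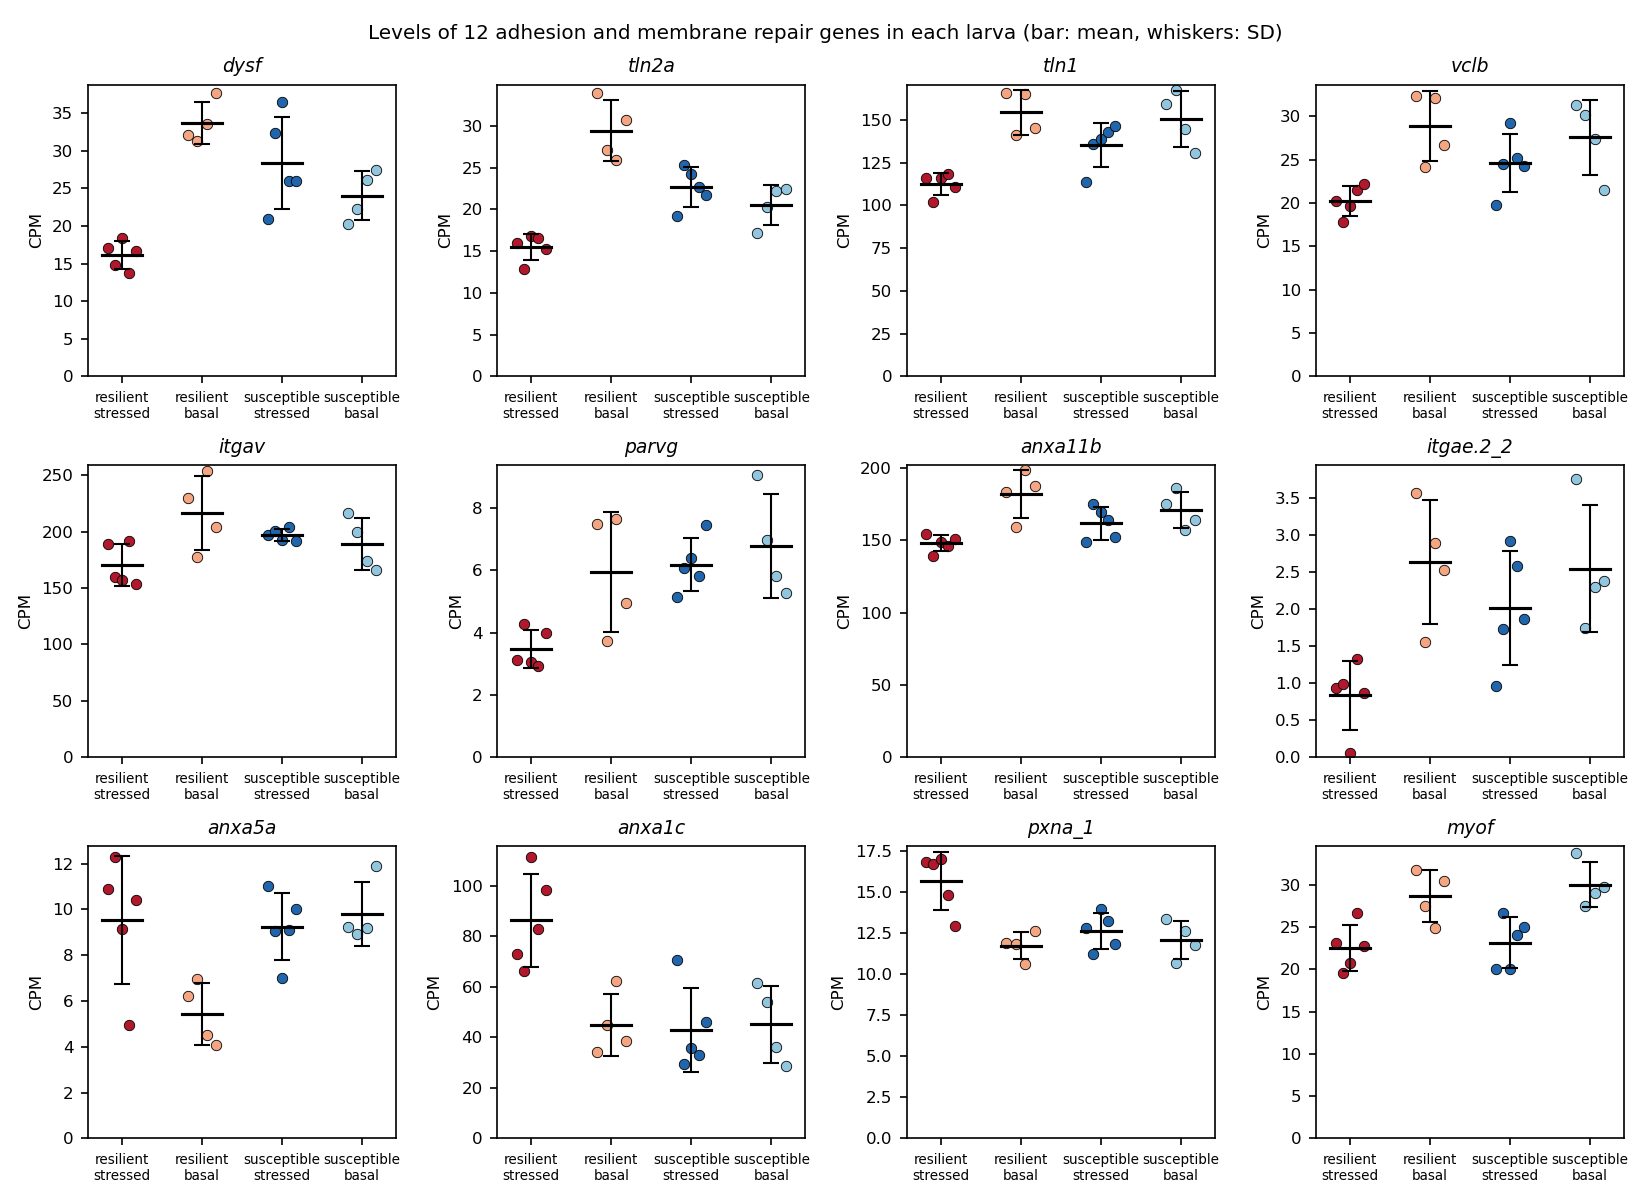
CPM of 12 members in each larva (points), with the group mean (bar) and SD (whiskers), for resilient stressed, resilient basal, susceptible stressed and susceptible basal larvae from left to right. For dysf, resilient stressed larvae lie between 13.7 and 18.4 CPM and resilient basal larvae between 31.3 and 37.6 CPM, while the susceptible larvae spread from 20.3 to 36.5 CPM.

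Of the 21 alpha subunits, 2 fell and none rose, or 9.52%, against 6.35% of all genes, and of the 14 beta subunits none was called. Of the beta subunits, 11 (78.6%) had negative fold changes (median -0.25), against 49.2% of all genes. An unadjusted p below 0.05 was found for 6 (42.9%), against 21.6% of all genes. The alpha subunit itgav, which pairs with several beta subunits to bind fibronectin and vitronectin, measured 189, 159.8, 157, 192 and 153 CPM in the resilient stressed larvae, against 229.8, 177, 254 and 204 CPM in the resilient basal larvae. These ranges overlapped, and the log2 fold change was -0.35 (SE 0.10, adjusted p = 0.0495). The row itgae.2_2, related to the alpha E subunit of mammalian T cells, had a log2 fold change of -1.65 (SE 0.46, adjusted p = 0.0387). It rested on 1 to 23 reads in each resilient stressed larva and 25 to 39 reads in each resilient basal larva (0.940, 0.988, 0.0577, 1.32 and 0.868 CPM in the resilient stressed larvae, against 3.56, 1.551, 2.89 and 2.52 CPM in the resilient basal larvae). Those ranges did not overlap, but larva 3 of the resilient stressed group held a single read. The table has no row named itgae.2 without a number, and the adjacent itgae.1 had a log2 fold change of 0.69 (SE 0.53, adjusted p = 0.491). Its copy itgae.1_2 had one of -1.17 (SE 0.52, adjusted p = 0.202), in the direction of itgae.2_2, and neither was called.

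The fibronectin receptor subunit itga5 averaged 10.2 ± 2.69 CPM in resilient stressed and 15.0 ± 6.72 CPM in resilient basal larvae, with a log2 fold change of -0.54 (SE 0.24, adjusted p = 0.197). The platelet-type subunit itga2b had a log2 fold change of 0.33 (SE 0.30, adjusted p = 0.577). Of the beta 1 subunits, which pair with most alpha subunits, itgb1b averaged 28.6 ± 4.08 CPM in resilient stressed and 36.2 ± 3.83 CPM in resilient basal larvae and just missed the threshold, with a log2 fold change of -0.34 (SE 0.10, adjusted p = 0.054). The row itgb1a ranged from 94.8 to 111 CPM in resilient stressed and from 116 to 124 CPM in resilient basal larvae, without overlap but with a log2 fold change of only -0.22 (SE 0.086, adjusted p = 0.139). The row itgb1b.1 averaged 112 ± 19.1 CPM in resilient stressed and 136 ± 15.3 CPM in resilient basal larvae, with a log2 fold change of -0.28 (SE 0.11, adjusted p = 0.14), and itgb1b.2 had one of -0.086 (SE 0.15, adjusted p = 0.797). In GRCz12tu, itgb1b lies next to itgb1b.2 and itgb1b.1, and the sources used here do not say how reads shared between them were counted. The leukocyte subunit itgb2 averaged 18.9 ± 3.62 CPM in resilient stressed and 25.5 ± 6.65 CPM in resilient basal larvae, with a log2 fold change of -0.43 (SE 0.25, adjusted p = 0.341).

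The kindlins were not called. The blood-cell kindlin fermt3b averaged 3.68 ± 0.625 CPM in resilient stressed and 5.24 ± 1.39 CPM in resilient basal larvae, with a log2 fold change of -0.51 (SE 0.22, adjusted p = 0.175). The widely expressed fermt2 had a log2 fold change of -0.056 (SE 0.087, adjusted p = 0.773).

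Of the actin-linking adaptors, the vinculin vclb fell. It measured 20.2, 17.8, 19.6, 21.5 and 22.2 CPM in the resilient stressed larvae, against 32.4, 24.2, 32.2 and 26.8 CPM in the resilient basal larvae. The groups did not overlap, and the log2 fold change was -0.51 (SE 0.12, adjusted p = 0.0212). Its paralog vcla, with a log2 fold change of -0.18 (SE 0.12, adjusted p = 0.407), and zyxin (zyx), with -0.19 (SE 0.10, adjusted p = 0.308), were not called. The paxillin copy pxna_1 went the other way and measured 16.8, 16.7, 17.0, 14.8 and 12.9 CPM in the resilient stressed larvae, against 11.9, 11.8, 10.6 and 12.6 CPM in the resilient basal larvae, without overlap, with a log2 fold change of 0.42 (SE 0.10, adjusted p = 0.02). The row pxna itself held most of the reads of the pair, averaged 48.3 ± 6.51 CPM in resilient stressed and 39.6 ± 3.68 CPM in resilient basal larvae, and had a log2 fold change of 0.29 (SE 0.10, adjusted p = 0.0829). Summed, the 2 pxna rows rose by 0.32 on the log2 scale (SE 0.086, adjusted p = 0.0319), while the other paxillin, pxnb, had a log2 fold change of -0.39 (SE 0.15, adjusted p = 0.142).

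In the group of ilk and parvins all 5 rows had negative fold changes, against 49.2% of all genes. Of the 5, 1 was called, or 20%, against 6.35% of all genes. The gamma parvin parvg, a parvin of blood cells in mammals, measured 3.13, 4.28, 3.06, 2.93 and 3.99 CPM in the resilient stressed larvae, against 7.495, 3.72, 7.64 and 4.95 CPM in the resilient basal larvae. The ranges overlapped, with resilient basal larvae 1 and 3 well above the rest. The log2 fold change was -0.77 (SE 0.21, adjusted p = 0.0376). The kinase-like scaffold ilk varied little between larvae and averaged 61.2 ± 2.50 CPM in resilient stressed and 70.1 ± 4.48 CPM in resilient basal larvae, with a log2 fold change of -0.20 (SE 0.062, adjusted p = 0.0659). The alpha parvin parvab had a log2 fold change of -0.47 (SE 0.16, adjusted p = 0.0922).

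Annexins did not move one way: 8 of the 14 had positive and 6 (42.9%) negative fold changes, near the 49.2% negative of all genes. In each direction 1 was called, together 14.3%, against 6.35% of all genes (3.59% lower and 2.76% higher). The annexin anxa11b measured 154, 139, 149, 146 and 151 CPM in the resilient stressed larvae, against 183, 159, 199 and 188 CPM in the resilient basal larvae. It was lower in every resilient stressed larva, with a log2 fold change of -0.30 (SE 0.072, adjusted p = 0.0204). The annexin anxa5a, related to the mammalian annexin that binds exposed phosphatidylserine, measured 10.9, 12.3, 9.12, 4.94 and 10.4 CPM in the resilient stressed larvae, against 6.22, 6.95, 4.50 and 4.08 CPM in the resilient basal larvae. Resilient stressed larva 4 fell among the basal values and the other 4 lay above them, with a log2 fold change of 0.79 (SE 0.22, adjusted p = 0.0391). The highest log2 fold change of the members belonged to anxa1c, related to a mammalian annexin that dampens inflammation, at 0.94 (SE 0.28, adjusted p = 0.0596), which was not called although all 5 resilient stressed larvae lay above all 4 basal ones. The panel annexins had log2 fold changes of 0.19 (SE 0.11, adjusted p = 0.313) for anxa1a, 0.35 (SE 0.22, adjusted p = 0.39) for anxa2a, -0.055 (SE 0.14, adjusted p = 0.869) for anxa5b and 0.014 (SE 0.058, adjusted p = 0.927) for anxa11a.

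These smaller calls leaned on single larvae. Leaving out resilient basal larva 1 or 3 or resilient stressed larva 2 or 3 ended the calls of vclb (adjusted p up to 0.0848) and pxna_1 (up to 0.0684). The call of anxa11b ended without resilient basal larva 1, 3 or 4 or resilient stressed larva 2 (up to 0.0779), and that of itgae.2_2 without resilient basal larva 1, 3 or 4 or resilient stressed larva 1 or 2 (up to 0.134). The call of parvg ended without resilient basal larva 1, 3 or 4 or any of resilient stressed larvae 1 to 4 (up to 0.149). That of anxa5a ended without resilient basal larva 1, 3 or 4 or resilient stressed larva 1, 2, 3 or 5 (up to 0.117), and that of itgav without resilient basal larva 1, 3 or 4, resilient stressed larva 2, 3 or 5, susceptible basal larva 2 or 3 or any of susceptible stressed larvae 1 to 5 (up to 0.184). The number of members called was 4 without resilient basal larva 1, 3 without larva 3 and 6 without larva 4 of that group, and 3 without resilient stressed larva 2 and 6 without larva 3 of that group. It was 2, dysf and tln2a, without resilient basal larvae 1 and 3 together and also without resilient stressed larvae 2 and 3 together. Calls over all genes fell as well, from 6.35% to 1.78%, 3.02% and 3.54% without resilient basal larva 1, 3 and 4. They were 2.72% and 2.75% without resilient stressed larva 2 and 3, and 0.167% and 0.311% without the 2 pairs.

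Without overlap between the groups, 10 members were lower in resilient stressed than in resilient basal larvae, or 13.9%, against 4.36% of all genes, and 2 were higher, or 2.78%, against 4.11%. Beside 7 of the called members, the 10 held itgb1a, itga1_1 and itgb3a_1.

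**Figure D3:**
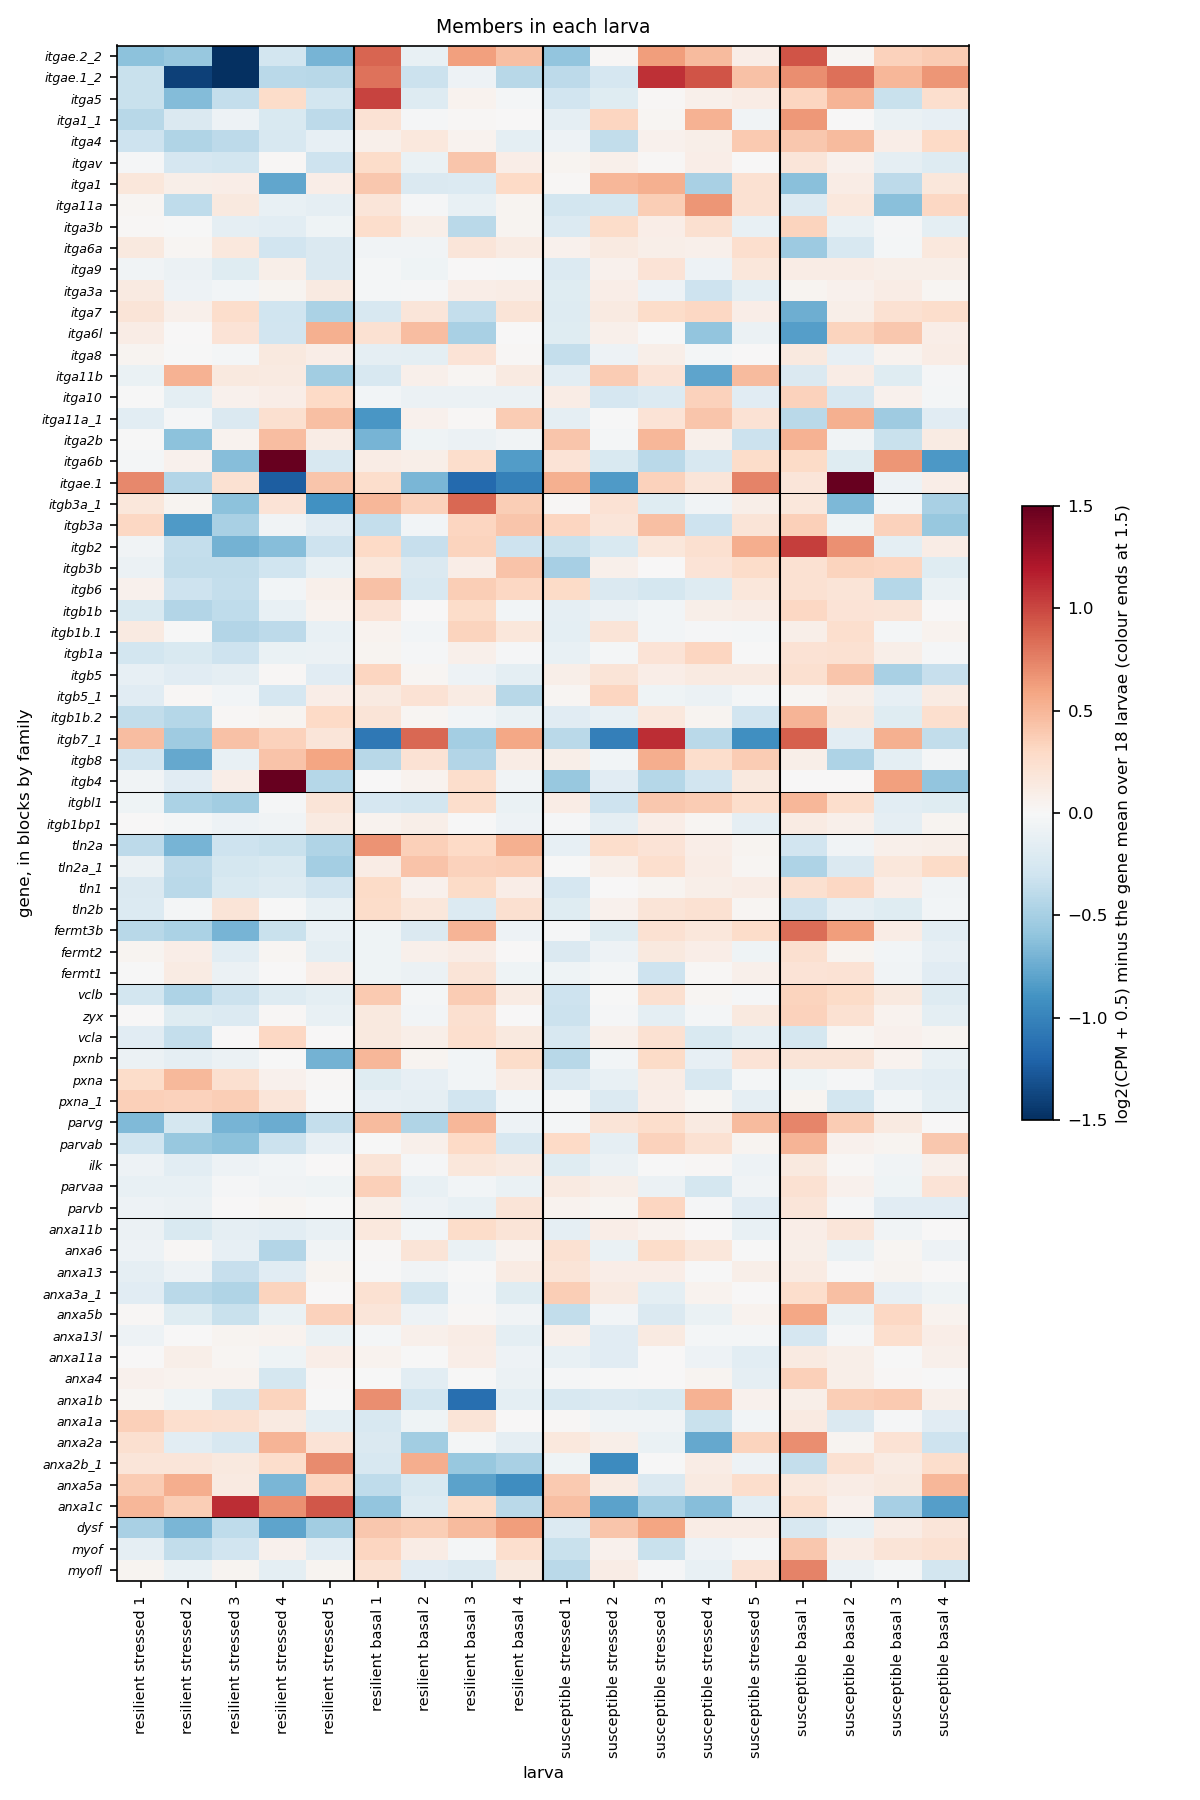
Level of each member (rows, in blocks by family) in each larva (columns, by group), as log2(CPM + 0.5) minus the gene's mean over the 18 larvae, with the colour scale ending at 1.5. The rows of dysf, tln2a and tln1 are low in all 5 resilient stressed larvae, while rows such as itgb7_1 and itgae.1 vary from larva to larva within groups.

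In susceptible larvae the same stress was followed by no called change: 0 of the 72 members were called with edgeR, as were 0.0% of all genes tested. At an unadjusted p below 0.05 there were 7 members, or 9.72%, against 7.45% of all genes. Neither DESeq2 nor voom called a member, beside 0.222% and 0.0% of all genes. The median log2 fold change of the members was -0.077, against -0.0041 over all genes tested, and 48 of the 72 (66.7%) had a negative fold change, against 51.0% of all genes, close to the 49 of 72 in resilient larvae. The smallest p belonged to myof, which measured 20.1, 26.7, 20.04, 24.1 and 24.96 CPM in the susceptible stressed larvae, against 33.8, 27.5, 29.1 and 29.8 CPM in the susceptible basal larvae. It was lower in every susceptible stressed larva, the only member whose groups did not overlap in this comparison (1.39% lower, against 1.43% of all genes, and none higher, against 1.3%), and its log2 fold change was -0.37 (SE 0.11, adjusted p = 0.394). The next were anxa11a, at -0.18 (SE 0.058, adjusted p = 0.442), and anxa5b, at -0.37 (SE 0.14, adjusted p = 0.527).

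The genes that had separated the resilient groups showed no such separation here. The dysf transcript measured 20.9, 32.4, 36.5, 26.0 and 26.0 CPM in the susceptible stressed larvae, against 20.3, 22.3, 26.2 and 27.4 CPM in the susceptible basal larvae. These ranges overlapped, and the log2 fold change was 0.24 (SE 0.14, adjusted p = 0.755). For tln2a the values were 19.2, 25.4, 24.3, 22.6 and 21.7 CPM in the susceptible stressed larvae, against 17.2, 20.3, 22.2 and 22.5 CPM in the susceptible basal larvae, with a log2 fold change of 0.15 (SE 0.11, adjusted p = 0.839). The log2 fold change of tln1 was -0.15 (SE 0.086, adjusted p = 0.753), that of vclb -0.17 (SE 0.12, adjusted p = 0.836) and that of ilk -0.12 (SE 0.062, adjusted p = 0.726).

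**Figure D4:**
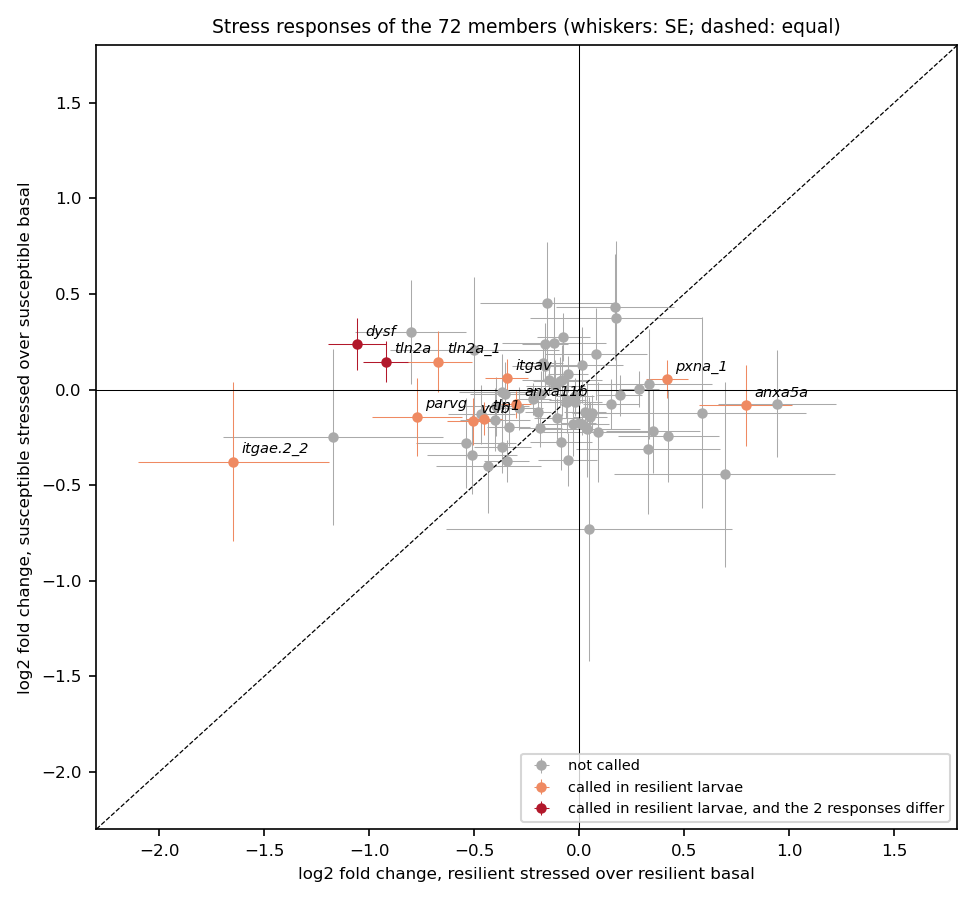
Log2 fold change after stress in resilient larvae (horizontal axis) and in susceptible larvae (vertical axis) for the 72 members, with whiskers of 1 SE and a dashed line where both are equal. The points of dysf (-1.06 and 0.24) and tln2a (-0.92 and 0.15), in dark red, are the members whose 2 responses differed by test.

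A direct test of the difference between the archetypes' stress responses (the susceptible response minus the resilient one) called 2 members, dysf and tln2a, or 2.78%, against 0.141% of all genes tested, which is 31 genes (0.0681% higher and 0.0726% lower). The difference was 1.299 (SE 0.20, adjusted p = 0.0127) on the log2 scale for dysf and 1.07 (SE 0.15, adjusted p = 0.0117) for tln2a. The next smallest p belonged to tln2a_1, at 0.82 (SE 0.22, adjusted p = 0.117), which was not called. All 4 talin rows had positive differences, with 0.30 (SE 0.12, adjusted p = 0.288) for tln1 and 0.40 (SE 0.15, adjusted p = 0.273) for tln2b. No other member was called, so a different response of the other 9 members that changed in resilient larvae was not shown. The tln2a difference stood under every alternative in which it was fitted (adjusted p up to 0.0485). The fit of the compared groups alone does not give this difference. With both tln2a rows summed, the tln2a difference was 1.03 (SE 0.15, adjusted p = 0.00769). The dysf difference stood with any 1 larva left out (adjusted p up to 0.0384) and ended with the bracketed number of the sample titles as a block (adjusted p = 0.0869), without resilient basal larvae 1 and 3, or without susceptible basal larvae 1 and 2.

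After the stress, susceptible larvae had higher dysf, tln2a, parvg and parvab and lower anxa1c than resilient larvae. These were the 5 members called, or 6.94%, against 3.55% of all genes tested (1.77% higher and 1.77% lower), and 23 members, or 31.9%, had an unadjusted p below 0.05, against 19.9% of all genes. The resilient stressed larvae are the same ones that were set against resilient basal larvae, so the comparisons share them. The log2 fold change was 0.81 (SE 0.13, adjusted p = 0.00549) for dysf, whose susceptible stressed larvae lay between 20.9 and 36.5 CPM and resilient stressed larvae between 13.7 and 18.4 CPM. For tln2a it was 0.54 (SE 0.10, adjusted p = 0.0111), with 22.7 ± 2.38 CPM in susceptible stressed and 15.5 ± 1.602 CPM in resilient stressed larvae, again without overlap.

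The gamma parvin parvg measured 5.15, 6.07, 6.39, 5.81 and 7.47 CPM in the susceptible stressed larvae, against 3.13, 4.28, 3.06, 2.93 and 3.99 CPM in the resilient stressed larvae. All susceptible stressed larvae were higher, with a log2 fold change of 0.84 (SE 0.20, adjusted p = 0.0281). The alpha parvin parvab, which with ilk links beta integrin tails to actin, measured 6.87, 4.96, 7.10, 6.54 and 5.69 CPM in the susceptible stressed larvae, against 4.39, 3.54, 3.41, 4.31 and 5.04 CPM in the resilient stressed larvae. The ranges overlapped at 1 larva of each group, and the log2 fold change was 0.59 (SE 0.15, adjusted p = 0.037). The annexin anxa1c measured 70.7, 29.3, 35.9, 32.9 and 46.1 CPM in the susceptible stressed larvae, against 73.0, 66.4, 111, 83.0 and 98.4 CPM in the resilient stressed larvae. Susceptible stressed larva 1 lay within the resilient range and the other 4 lay below it, with a log2 fold change of -1.01 (SE 0.26, adjusted p = 0.0457). Among the members just past the threshold were pxna, at -0.32 (SE 0.089, adjusted p = 0.0509), itgb1a, at 0.28 (SE 0.081, adjusted p = 0.0582), and tln1, at 0.27 (SE 0.081, adjusted p = 0.0693). The smallest adjusted p was 0.0612 among the numbered copies and 0.0649 among the alpha subunits. The 2 pxna rows summed were called at -0.32 (SE 0.080, adjusted p = 0.0291).

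Without overlap, 5 members were higher in susceptible stressed larvae (dysf, tln2a, tln2a_1, parvg and itgb5), or 6.94%, against 2.46% of all genes, and 1 was lower (anxa2b_1), or 1.39%, against 2.52%. The calls of dysf and tln2a stood with any 1 larva left out (adjusted p up to 0.0202 and 0.0349) and ended with 1 surrogate variable (0.0753 and 0.194) and without resilient stressed larvae 2 and 3. The call of parvg ended without any of resilient stressed larvae 1, 3 and 4 or susceptible stressed larvae 3 to 5 (adjusted p up to 0.0869). That of parvab ended without any of resilient stressed larvae 1 to 3 or susceptible stressed larvae 1, 3, 4 and 5 (up to 0.114), and that of anxa1c without any of resilient stressed larvae 1 to 5 or susceptible stressed larvae 2 to 5, resilient basal larva 2 or 4 or susceptible basal larva 3 (up to 0.13). The number of members called was 2 without resilient stressed larva 1 or 3 or susceptible stressed larva 4 or 5, 3 without resilient stressed larva 2 or susceptible stressed larva 3, and 9 without resilient stressed larva 5. Calls over all genes moved too, from 3.55% to 2.92%, 1.07%, 0.896% and 7.84% without resilient stressed larva 1, 2, 3 and 5. They were 2.02%, 1.18% and 2.34% without susceptible stressed larva 3, 4 and 5.

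Without a stress, 0 of the 72 members were called between susceptible and resilient larvae with edgeR, as were 0.0% of all genes tested. At an unadjusted p below 0.05 there were 9 members, or 12.5%, against 5.95% of all genes. DESeq2 called 1 member, beside 0.0681% of all genes, and voom none, beside 0.0% of all genes. The smallest p belonged to tln2a, which averaged 20.5 ± 2.40 CPM in susceptible basal and 29.4 ± 3.60 CPM in resilient basal larvae without overlap. Its log2 fold change was -0.52 (SE 0.11, adjusted p = 0.627). For anxa5a the means were 9.80 ± 1.39 CPM in susceptible basal and 5.44 ± 1.37 CPM in resilient basal larvae, also without overlap, with a log2 fold change of 0.85 (SE 0.23, adjusted p = 0.679). For dysf the susceptible basal larvae lay between 20.3 and 27.4 CPM and the resilient basal larvae between 31.3 and 37.6 CPM, with a log2 fold change of -0.49 (SE 0.15, adjusted p = 0.747). In all, 4 members were lower in every susceptible basal larva (dysf, tln2a, itgb3a_1 and vcla), or 5.56%, against 1.66% of all genes, and 3 were higher (anxa4, anxa5a and itga9), or 4.17%, against 1.63%. The resilient basal larvae are also those of the resilient stress comparison and of the test of the difference between responses. The basal archetype difference, the resilient stress difference and the difference between responses of dysf and tln2a therefore share the same 4 high values.

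Over the 4 groups, dysf therefore ran in the order resilient stressed (mean 16.1 CPM), susceptible basal (24.0 CPM), susceptible stressed (28.3 CPM) and resilient basal (33.7 CPM), and tln2a ran in the same order (15.5, 20.5, 22.7 and 29.4 CPM). The 2 susceptible groups, which are neighbours in that order, overlapped for both genes, and susceptible stressed and resilient basal larvae overlapped for dysf but not for tln2a.

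Other genes of the pathway were taken from lists chosen by function with earlier results of these data known. The shares called in these lists are therefore not an independent test. Of 31 integrin ligands and matrix genes tested, 7 fell and 1 rose in resilient stressed larvae relative to resilient basal larvae, which is 25.8% called, against 6.35% of all genes tested (3.59% lower and 2.76% higher). Over the 31, the median was -0.24 on the log2 scale. The laminin subunit lamb2 had a log2 fold change of -0.69 (SE 0.10, adjusted p = 0.00194), the fibronectin gene fn1b -1.02 (SE 0.19, adjusted p = 0.00754) and the thrombospondin thbs1a -0.80 (SE 0.15, adjusted p = 0.00836). Of 57 focal adhesion adaptors and kinases, 9 fell and 3 rose, or 21.1% (median -0.049). The filamin C genes flnca, at -0.80 (SE 0.15, adjusted p = 0.0078), and flncb, at -0.72 (SE 0.14, adjusted p = 0.00855), which crosslink actin in muscle, fell. The intermediate filament gene vim rose, at 0.60 (SE 0.12, adjusted p = 0.00932). Of 39 other membrane repair genes and annexin partners, 7 fell and none rose, or 17.9% (median -0.12). These included the caveolar coat genes cavin1b, at -0.66 (SE 0.12, adjusted p = 0.00519), and cavin1a, at -1.05 (SE 0.23, adjusted p = 0.0128), and the calpain capn2a, at -1.04 (SE 0.19, adjusted p = 0.00722), whose mammalian counterpart cleaves talin. Of these 8 named genes and vim, cavin1a alone lost its call with 1 larva left out, resilient basal larva 1 (adjusted p = 0.0515). Other alternatives ended far more calls. Over all comparisons, 60 values of named genes, members included, were called. Of these, 54 lost their call with 1 surrogate variable, 53 without resilient stressed larvae 2 and 3, and 30 without resilient basal larvae 1 and 3.

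In susceptible stressed relative to resilient stressed larvae, 5 of the 31 ligands rose and none fell, which is 16.1% called (median 0.22), against 3.55% of all genes (1.77% in each direction). Of the 57 adaptors 4 rose and 1 fell, or 8.77% (median -0.0052), and of the 39 repair partners 5 rose and none fell, or 12.8% (median 0.069). The leading genes were lamb2 (log2 fold change 0.61, SE 0.10, adjusted p = 0.00549) and thbs1a (log2 fold change 0.69, SE 0.15, adjusted p = 0.0182) among the ligands. Among the adaptors they were flncb (log2 fold change 0.61, SE 0.13, adjusted p = 0.0206), flnca (log2 fold change 0.65, SE 0.14, adjusted p = 0.0215) and vim, which was lower (log2 fold change -0.49, SE 0.11, adjusted p = 0.024). Among the repair partners they were cavin1b (log2 fold change 0.61, SE 0.11, adjusted p = 0.00866), capn2a (log2 fold change 1.01, SE 0.18, adjusted p = 0.00932) and capn1a (log2 fold change 0.51, SE 0.11, adjusted p = 0.0163). None of these 3 lists had a called gene in susceptible larvae after stress, between the archetypes without stress, or in the test of the difference between responses. Of all genes tested, 0.0%, 0.0% and 0.141% were called in these comparisons, so the absence of calls tells little about the lists. Leaving out resilient stressed larva 2 ended the calls of thbs1a, flnca, flncb and vim, larva 1 that of vim, and larva 3 those of flncb, vim and capn1a. Among susceptible stressed larvae, larva 2 ended that of vim, larva 3 that of flnca, larva 4 those of flncb and vim, and larva 5 that of flnca, with adjusted p up to 0.0761 over these genes.

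Markers of other cell types moved in part with these genes. Of 13 macrophage markers, 5 fell in resilient stressed relative to resilient basal larvae, a share of 38.5%, against 6.35% of all genes, led by mpeg1.2 (log2 fold change -1.89, SE 0.35, adjusted p = 0.00815), ctss2.1 (log2 fold change -1.19, SE 0.23, adjusted p = 0.00886) and ctss2.2 (log2 fold change -0.71, SE 0.18, adjusted p = 0.0283). Their summed level was 528 to 1186 CPM in resilient stressed and 1009 to 1703 CPM in resilient basal larvae. The call of ctss2.2 ended without resilient basal larva 1, 3 or 4 or any of resilient stressed larvae 1 to 3 (adjusted p up to 0.119). In susceptible stressed larvae, at 949 to 1421 CPM against 1017 to 1969 CPM in susceptible basal larvae, none was called, as were 0.0% of all genes. Of 11 neutrophil markers, 1 fell in resilient larvae (srgn, log2 fold change -1.39, SE 0.24, adjusted p = 0.0044), a share of 9.09%. Of the 11, 10 had negative fold changes (median -0.73), whereas their summed level, which weights abundant genes most, was 3503 to 5227 CPM in resilient stressed and 3332 to 4191 CPM in resilient basal larvae (median 4508 CPM in resilient stressed and 3895 CPM in resilient basal larvae). None of 6 thrombocyte markers tested was called. Over the 8 that matched a row, the summed level was 199.9 to 264 CPM in resilient stressed and 216 to 239 CPM in resilient basal larvae. The part of these cells in the changes of parvg, itgae.2_2, fermt3b and itgb2, which are known from blood cells, was not tested.

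Of 22 skeletal muscle markers, 1 fell in resilient stressed larvae, desmin (desma, log2 fold change -1.19, SE 0.21, adjusted p = 0.00709), a share of 4.55%, against 6.35% of all genes. The list as a whole leaned the other way, with 17 positive and 5 negative fold changes and a median of 0.095 on the log2 scale. The summed level of the list overlapped, at 38436 to 42087 CPM in resilient stressed and 36875 to 40422 CPM in resilient basal larvae. Between susceptible stressed and resilient stressed larvae, desma was also the only muscle marker called (log2 fold change 1.06, SE 0.20, adjusted p = 0.0139), with summed levels of 33213 to 44538 CPM in susceptible stressed and 38436 to 42087 CPM in resilient stressed larvae. Of 14 endothelium markers, the scavenger receptors stab2 (log2 fold change -1.26, SE 0.24, adjusted p = 0.00754) and stab1 (log2 fold change -0.94, SE 0.22, adjusted p = 0.0183) fell in resilient larvae, a share of 14.3%. Their list's summed level, over the 15 markers that matched a row, was 210.2 to 241 CPM in resilient stressed and 272 to 287 CPM in resilient basal larvae, without overlap. In that sum, stab1 averaged 40.3 CPM in resilient stressed and 77.3 CPM in resilient basal larvae. Of the 14 tested, 10 had negative fold changes after stress in resilient larvae (median -0.13) and 13 in susceptible larvae (median -0.16). The summed level was 240 to 306 CPM in susceptible stressed and 276 to 388 CPM in susceptible basal larvae. Of 13 hepatocyte markers tested, 6 fell, or 46.2%, led by cp (log2 fold change -1.15, SE 0.23, adjusted p = 0.00971), a2ml (log2 fold change -0.76, SE 0.17, adjusted p = 0.0175) and serpina1l (log2 fold change -0.90, SE 0.23, adjusted p = 0.0277). Over the 14 that matched a row, summed levels were 7077 to 11097 CPM in resilient stressed and 9998 to 16561 CPM in resilient basal larvae. The call of stab1 ended without resilient basal larva 1 or resilient stressed larva 2 or 3 (adjusted p up to 0.0577). That of a2ml ended without resilient basal larva 1 or 3 or resilient stressed larva 3 (up to 0.0674), and that of serpina1l without resilient basal larva 1, 3 or 4 or resilient stressed larva 2 or 3 (up to 0.0899). The part of these cell types in the members' changes was not tested.

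Of 21 epidermis markers 1 rose (icn2, log2 fold change 0.77, SE 0.16, adjusted p = 0.00968; summed level 13007 to 14029 CPM in resilient stressed and 9021 to 13160.4 CPM in resilient basal larvae), and of 13 enterocyte markers 1 rose (mep1a.1, log2 fold change 0.62, SE 0.18, adjusted p = 0.0484; summed level 3891 to 5672 CPM in resilient stressed and 3781 to 4666 CPM in resilient basal larvae). These shares, 4.76% of the epidermis and 7.69% of the enterocyte markers, lie near the 6.35% of all genes. Of 15 neuron markers none was called (summed level 3199.9 to 3374 CPM in resilient stressed and 3072 to 3278 CPM in resilient basal larvae). Between susceptible stressed and resilient stressed larvae, 3 of 13 macrophage markers were called higher (23.08%). So were 2 of 14 endothelium (14.29%) and 2 of 13 hepatocyte markers (15.38%). Called lower were 2 of 21 epidermis (9.524%) and 2 of 13 enterocyte markers (15.38%). In this comparison 3.55% of all genes were called, 1.77% in each direction. No neutrophil, thrombocyte or neuron marker was called in it. The mep1a.1 call in resilient larvae ended without resilient basal larva 1, 3 or 4, any of resilient stressed larvae 1 to 4, susceptible basal larva 2 or 4 or susceptible stressed larva 1, 3 or 5 (adjusted p up to 0.15). No marker of any of these lists that matched a row, tested or not, stood at 0 in every larva.

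**Figure D5:**
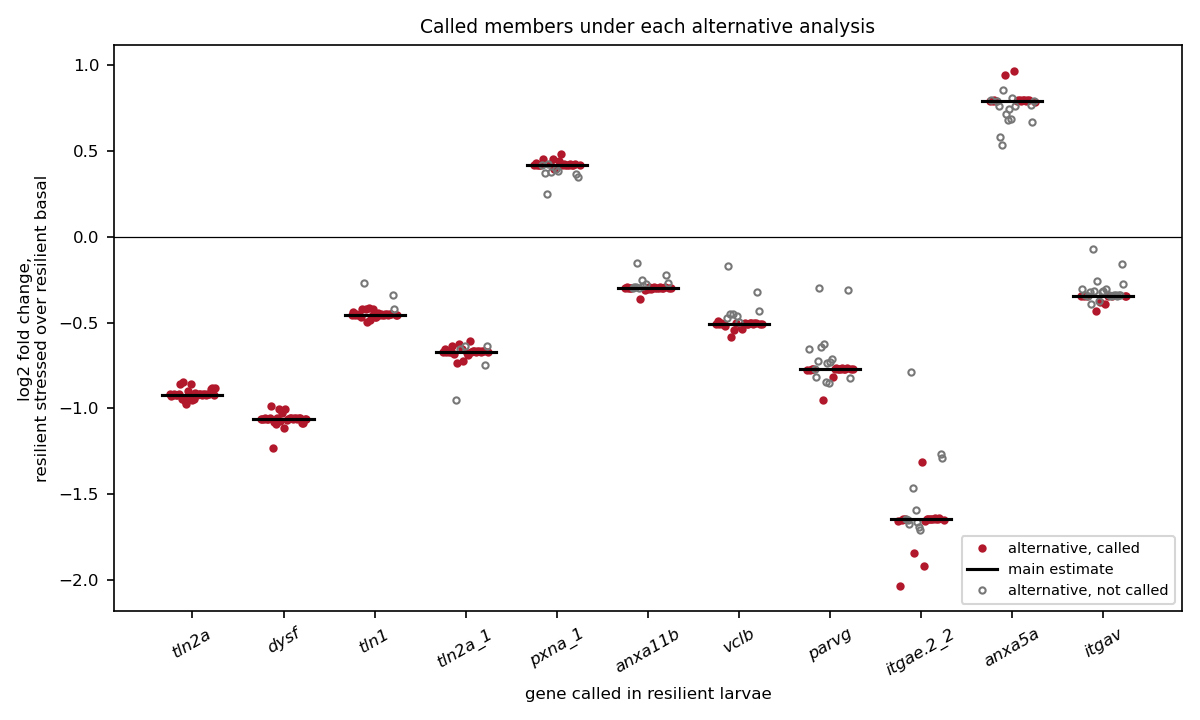
Log2 fold change of resilient stressed over resilient basal larvae for the 11 called members under each of the 31 alternative analyses (points, filled where called) and in the analysis reported (bar). The numbered copies have no point for the analysis with copies summed. All alternatives called dysf and tln2a, between -1.23 and -0.98 and between -0.97 and -0.85, and no member crosses 0.

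Within groups, the median SD of log2 CPM was 0.22 over the members and also 0.22 over all genes tested. The steadiest members were anxa11a (SD 0.069) and ilk (0.079), and the most variable were itgb7_1 (0.99), itgae.1_2 (0.81) and itgae.1 (0.78), with means of 15.6, 32.3 and 91.1 reads per larva. Total reads ran from 8452595 to 23801175 per larva. On the first principal component of all genes, which held 17.3% of the variance, the 5 resilient stressed larvae scored 16.6 to 57.0 and the other 13 larvae -34.5 to 3.92.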

How the data were processed

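The deposited table holds, per the file headers, raw read counts for each gene in 18 larvae, which were analysed here. It also holds the authors' size-factor scaled counts (signal values), regularized log2 expression, log2 fold changes and p-values, none of which entered a result. The submitters' processing notes name cutadapt, STAR, DESeq2 and the danRer11 build. Versions, gene counter, annotation and strandedness are unknown from the sources used here.

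Of 25281 rows, 15 named as dates were left out (0.0613% to 0.0698% of a library's reads). The others were fitted with edgeR 4.0.16 (R 4.3.3) as 4 group means over all 18 larvae, with TMM factors, filterByExpr and the robust quasi-likelihood test, and p-values were adjusted over the 22038 genes that passed. The SE was derived from the fold change and its F statistic. Each library is a separate larva, so p-values set differences between groups against the spread between larvae. No batch is known from the labels. The main edgeR fit was first tested on simulated counts. No pair of larvae agreed within sampling noise (32 pairs within groups, lowest chi-square per degree of freedom 6.89).

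Members and lists were chosen with earlier results of these data known. Of 302 list entries in 12 lists, 264 matched a row by symbol and 255 were tested. The summed level of a list is over all its matched rows, tested or not. Named were all called members, the 3 smallest p where fewer than 5 were called, a fixed panel of dysf, talins, vinculins, integrins, kindlins, ilk, myoferlins and annexins, the leading 3 called genes of a list (1 of them is not reported here), and some further members chosen after their values were seen. Alternatives were DESeq2 1.42.0, voom in limma 3.58.1, RLE factors, 2 other filters, a fit of the compared groups alone, replicate blocks, 1 surrogate variable (sva 3.50.0), larvae left out, and numbered copies summed (chosen after seeing the data).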

Additional observations from a re-analysis of the deposited data

Results flagged for a closer look

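The difference between the stress responses of the archetypes passed the test for dysf (1.299 on the log2 scale, susceptible minus resilient response) and tln2a (1.07). In resilient larvae the responses were -1.06 and -0.92, and in susceptible larvae 0.24 and 0.15.

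In 5 of the 116 combinations of a named member and a group that were checked, 1 larva stood far from the others of its group. Chance alone gives about 5% of groups such a larva. In susceptible stressed larva 4, anxa1a was 249.9 CPM, against 304 to 319 CPM in the other 4. In susceptible basal larva 4, anxa5a was 11.9 CPM, against 8.91 to 9.23 CPM in the other 3, and in larva 1 of that group vcla was 37.9 CPM, against 46.5 to 47.7 CPM. In resilient basal larva 1, itga2b was 0.823 CPM, against 1.53 to 1.56 CPM in the other 3, and itga5 was 25.05 CPM, against 10.6 to 12.6 CPM.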

How the results depend on the processing

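For stress in resilient larvae, the number of members called, 11, was 16 with DESeq2, 10 or 11 with voom, RLE factors, either other filter or copies summed, 6 with only the groups compared, 7 with a block by title number and 4 by bracket number, and 2 with 1 surrogate variable, without resilient basal larvae 1 and 3, or without resilient stressed larvae 2 and 3. With 1 larva left out it ran from 3 to 13. Between the archetypes after stress, the 5 became 12 with DESeq2, 11 with voom, 3 with only the groups compared, 3 and 2 with the title and bracket blocks, 0 with 1 surrogate variable and 0 without resilient stressed larvae 2 and 3, and 2 to 9 with 1 larva left out. Without stress, the 0 became 1 with DESeq2, which called 15 of all genes (0.0681%). The 2 members whose responses differed became 1 (tln2a) with the bracket block, without resilient basal larvae 1 and 3, or without susceptible basal larvae 1 and 2. Over all genes, the 31 (0.141%) became 8 (0.0363%), 6 (0.0264%) and 27 (0.12%) in these settings. The members called for susceptible stress stayed at 0, also with DESeq2, which called 49 of all genes (0.222%). Over all genes, the 782 called between the archetypes after stress (3.55%) became 1562 (7.09%) with DESeq2, 1504 (6.82%) with voom, 590 with only the groups compared, 503 and 487 with the blocks, 5 with the surrogate variable and 16 without resilient stressed larvae 2 and 3. With 1 larva left out, this number ran from 197 (0.896%) to 1730 (7.84%). The 1399 called in resilient larvae (6.35%) became 1886 (8.56%) with DESeq2, 1628 (7.39%) with voom, 640 with only the groups compared, 863 and 427 with the blocks, 10 with the surrogate variable, 38 without resilient basal larvae 1 and 3 and 69 without resilient stressed larvae 2 and 3. With 1 larva left out, that number ran from 398 (1.78%) to 1918 (8.69%). Each library is a separate larva, so a number shared between groups does not mark 1 animal. Same-numbered larvae correlated at a median of -0.028 over 25 pairs by title number and 0.0052 over 19 by bracket number. Of these pairs, 2 and 4 lay over 0.1. Whether a number marks a shared clutch or batch is not known, and these correlations cannot decide it. Of the 60 named values that were called none changed sign. Of the uncalled ones in resilient larvae, myofl became 0.054 with the bracket block, 0.11 with the surrogate variable, and ran from -0.093 to 0.049 with 1 larva left out. With the surrogate variable itgb2 became 0.20, itga5 0.11, fermt2 0.0011, fermt3b 0.12 and anxa5b 0.21. Also, anxa5b ran from -0.16 to 0.013 with 1 larva left out and became 0.038 without resilient basal larvae 1 and 3 and 0.083 without resilient stressed larvae 2 and 3. For anxa11a, values became -0.0014 with the bracket block, -0.0013 without resilient stressed larvae 2 and 3, and -0.018 to 0.045 with 1 larva left out. Between basal archetypes, tln1 became 0.080 without resilient basal larvae 1 and 3, and ran from -0.093 to 0.027 with 1 larva left out. The cause was not tested for any of these. A row such as itgae.2_2, with 1 to 23 reads in each resilient stressed larva, is limited by depth.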
